A study of Mus musculus with 2 samples.

Results

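Maf, Spi1, Irf8, Irf4, Cebpa, Cebpb, Nr4a1, Pou2f2 and Klf4 are transcription factors that direct the fate of monocytes and macrophages. They were chosen by name, as 9 of the 32285 features of the count tables, and their RNA was read in the leukocytes of mouse brown adipose tissue (BAT). The study compared BAT leukocytes of mice that lack adipose triglyceride lipase (ATGL) in adipocytes, called AdipoΔ/Δ, with those of control mice, to ask how disturbed lipolysis in adipocytes shapes the leukocytes around them. Each group gave 1 library. All mice were C57Bl/6 males of the genotype AdipoQ-CreERT2 ATGLfl/fl, in which tamoxifen activates a Cre recombinase driven by the adiponectin promoter, so that the floxed gene is targeted in adipocytes. The AdipoΔ/Δ mice received tamoxifen at 10 mg/ml, in 200 uL of sunflower oil with 10% ethanol, by intraperitoneal injection every 2 days for 1 week, and the control mice received vehicle on the same schedule. A rest of 2 weeks followed in both groups. The labels give the age of the mice as 16 weeks, whereas the study's text names a younger age, and how many mice were pooled for a library is not given. The tissue was digested with collagenase A at 1.5 mg/ml and 37 °C for 30 minutes and passed through a 100 um sieve, and DAPI-negative CD45+ cells were sorted and captured by the 10x Genomics 3′ v3.1 chemistry.

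Spi1 encodes PU.1, the factor that all myeloid cells need, and Cebpa and Irf8 act beside it when progenitors become granulocytes or monocytes. Monocytes that carry much Ly6C leave the bone marrow and enter tissues, where they can become macrophages or dendritic cells. Others turn into Ly6C low monocytes, which patrol the vessel wall and need Nr4a1, Cebpb and Klf4, while Maf and Irf4 are known from tissue macrophages and from antigen-presenting or alternatively activated cells.

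The gene targeted in the AdipoΔ/Δ mice, Pnpla2, which encodes ATGL, had 37.1 CPM (33.6 to 40.9) over the kept control cells and 42.2 CPM (38.5 to 46.1) over those of the AdipoΔ/Δ library. CPM is the number of unique molecular identifiers (UMIs) of a gene per 1000000 UMIs of all genes, summed over the cells named, and the range in parentheses is the 95% Poisson interval. This value says nothing about adipocytes, because the cells were sorted leukocytes, and a 3′ tag outside the deleted part of the gene checks nothing. Ptprc, which encodes the CD45 used for the sort, had a UMI in 80.4% of control cells and 80.4% of AdipoΔ/Δ cells. The control library held 2597 barcodes with 11327187 UMIs and the AdipoΔ/Δ library 2381 barcodes with 12028844 UMIs. Barcodes that showed 200 genes or more, with mitochondrial UMIs making up no more than 10%, were taken as cells, which left 2279 (87.8%) control cells with a median of 3678 UMIs and 2016 (84.7%) AdipoΔ/Δ cells with a median of 3942 UMIs. The libraries shared 4 barcodes, all kept in both. Marker genes of neutrophils, erythrocytes and adipocytes were present at unequal levels in the libraries. The 9 neutrophil markers summed to 26089 CPM over all kept control and 8714 CPM over all kept AdipoΔ/Δ cells, with S100a9 the most abundant. These sums include the neutrophil-like cells themselves, 13.8% of control and 8.48% of AdipoΔ/Δ cells, and do not measure free RNA. The 5 erythrocyte markers summed to 1092 and 8.93 CPM, led by Hbb-bs at 489.8 and 3.71 CPM. The 9 adipocyte markers summed to 65.0 CPM with Ucp1 at 0 UMIs in the control library and to 87.1 CPM in the AdipoΔ/Δ library, with Fabp4 the most abundant in both.

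The 4295 kept cells of both libraries formed 17 clusters, which were named from fixed marker genes. The 9 members, the other listed factors and the immediate early genes were left out of the clustering features, and no transcription factor served as a marker, so the classes were formed without the members. Ly6C high monocyte-like cells, led by Vcan and Chil3, numbered 330 in the control and 153 in the AdipoΔ/Δ library. Ly6C low monocyte-like cells fell into a pair of clusters. The first was led by Cd300e, Eno3 and Ace and held 246 control and 223 AdipoΔ/Δ cells, with Ly6c2, the gene of the Ly6C antigen itself, at 8.47 and 28.8 CPM. The second was led by Gngt2 and Aif1 and held 179 and 118 cells, with Ly6c2 at 518 and 479 CPM, between the first cluster and the 1219 and 1724 CPM of the Ly6C high cells. Both met the Ly6C low markers, so values of the Ly6C low class join clusters of unlike Ly6c2 level. At a resolution of 0.5 the Ly6C high class held 521 and 275 cells and the Ly6C low class 251 and 227. Macrophage-like cells numbered 197 in the control and 616 in the AdipoΔ/Δ library. They comprised 58 and 138 resident macrophage-like cells (Folr2, Lyve1), 49 and 175 matrix macrophage-like cells (Retnla, Ecm1), 12 and 81 lipid-associated macrophage-like cells (Gpnmb, Trem2) and 78 and 222 cells of a cluster that met no subset list. Depth differed between these clusters and between libraries: a cell held a median of 7374 and 6992 UMIs in the Ly6C high cluster, 1097 and 895 in the macrophage cluster with no subset, and 1321 and 12087 in the lipid-associated cluster. Here and in what follows, pairs of values give the control library and then the AdipoΔ/Δ library. The other classes were neutrophil-like (314 and 171 cells), dendritic cell-like (84 and 114), T cell-like (353 and 242), B cell-like (263 and 95) and NK cell-like cells (208 and 175).

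Monocyte-like and macrophage-like cells made up 41.8% of control and 55.1% of AdipoΔ/Δ cells and held 44.7% and 53.7% of all UMIs. They held a larger share of the UMIs of 8 of the 9 members in both libraries, and Irf8 was the exception. The share was 89.5% and 89.3% for Cebpa, the myeloid C/EBP of granulocyte and monocyte progenitors. For Nr4a1, the orphan nuclear receptor that Ly6C low monocytes depend on, it was 89.4% and 81.9%. Of the Irf8 UMIs, 41.3% and 33.5% lay in monocytes and macrophages, and NK and dendritic cells had higher levels of it. The plot of levels by class shows each member on its own panel, and the classes with the highest level differ from member to member. With 1 library per group, differences between the libraries have no replicate check, and all intervals cover counting error only.

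**Figure D1:**
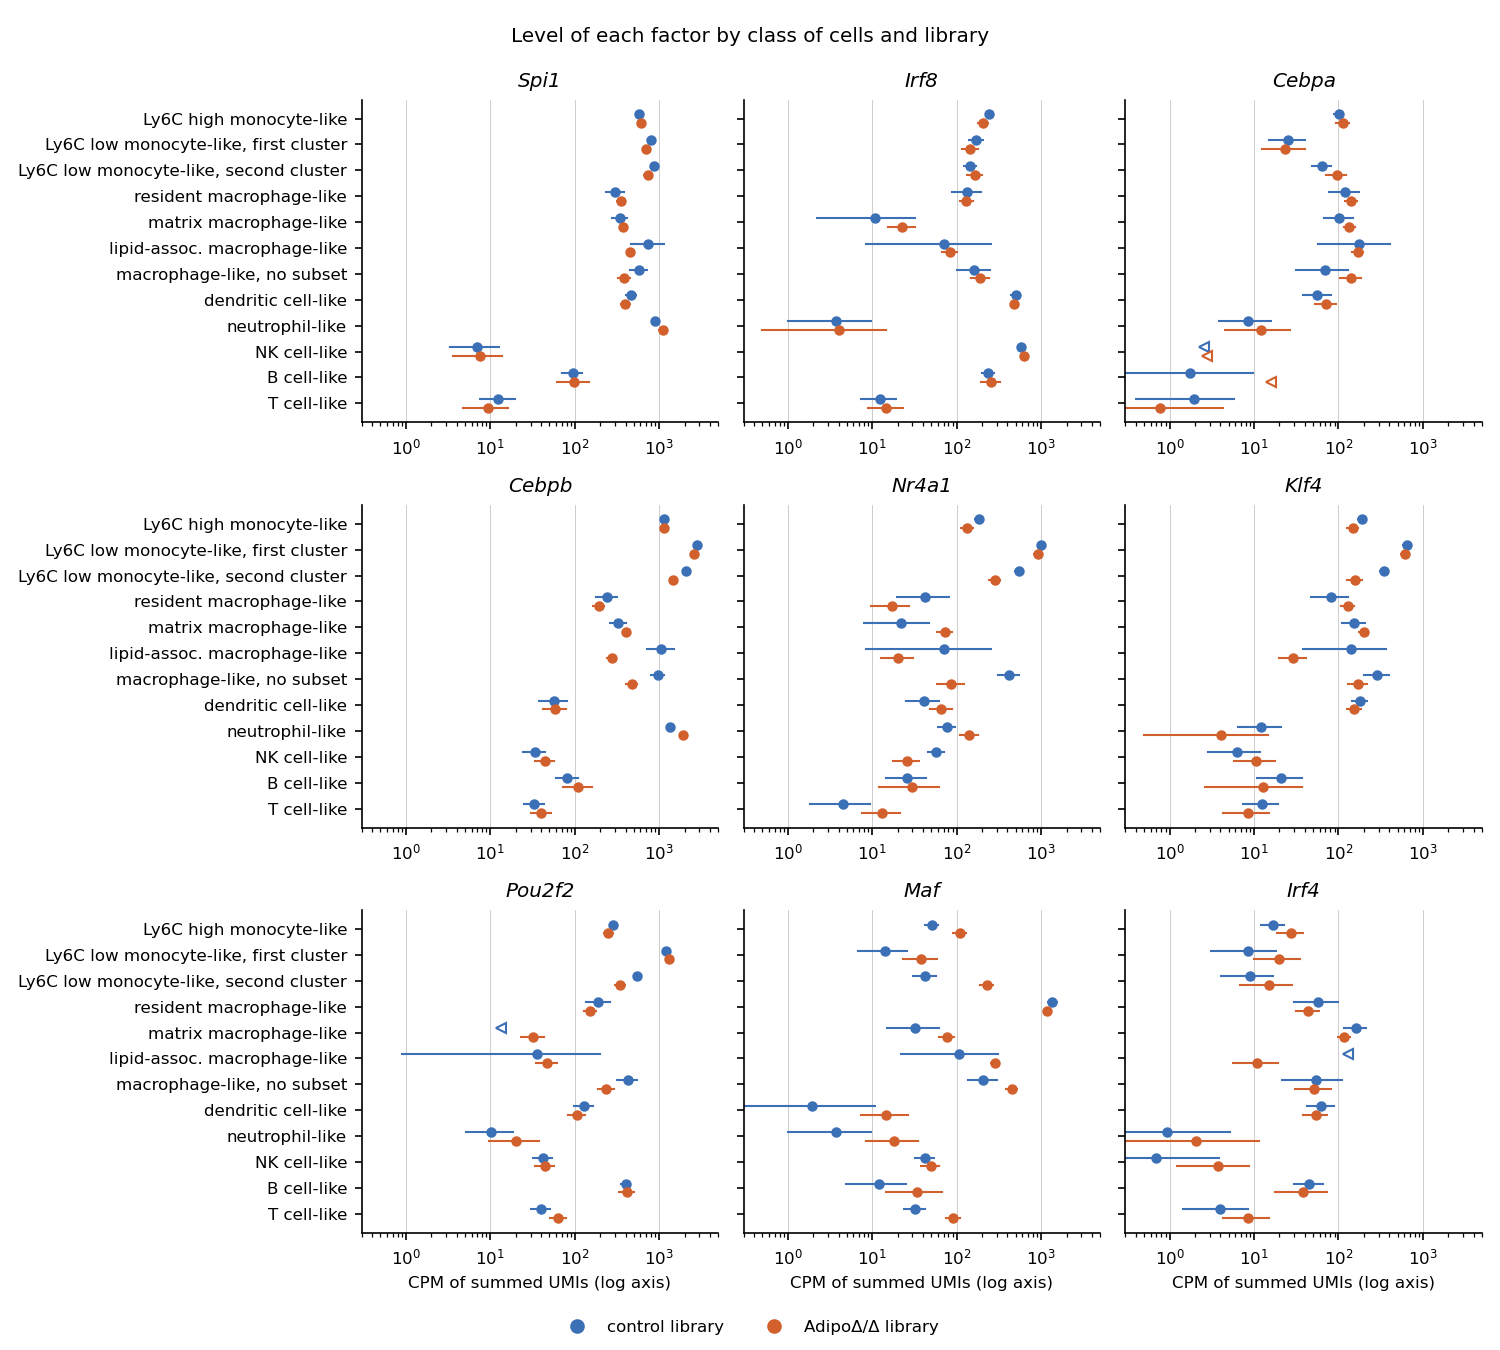
Level of each of the 9 members (CPM of summed UMIs, log axis) in 12 clusters or classes of the control and the AdipoΔ/Δ library, with 95% Poisson intervals; an open triangle marks 0 UMIs, drawn at its upper limit. Maf was highest in resident macrophages (1361 and 1187 CPM), and Nr4a1, Cebpb, Pou2f2 and Klf4 were highest in the first Ly6C low cluster.

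Spi1, Irf8 and Cebpa act early in the myeloid lineage. Spi1, whose product PU.1 opens myeloid enhancers, was highest in neutrophils, at 890.1 CPM (834 to 949) in the control and 1096 CPM (1005 to 1192) in the AdipoΔ/Δ library. In the control library this interval overlapped that of the second Ly6C low cluster (858 and 733 CPM), while in the AdipoΔ/Δ library it stood alone. The first Ly6C low cluster had 804 and 704 CPM, and the Ly6C high cells 581 and 606 CPM. Resident macrophages (303 and 354 CPM) and matrix macrophages (340.3 and 377 CPM) had the lowest Spi1 levels of the monocyte and macrophage clusters. NK cells had 6.96 and 7.57 CPM, the T cell clusters together 12.4 and 9.29 CPM and B cells 94.1 and 97.8 CPM. A Spi1 UMI was found in 88.2% and 86.9% of Ly6C high cells and in 4.33% and 4.57% of NK cells, which have a like depth of 6471 and 6493 UMIs. With every cell thinned to 1000 UMIs the shares were 41.5% and 43.0% in Ly6C high cells, where 6 and 5 cells were too small and were left out, and 0.742% and 0.692% in NK cells, where 0 and 1 were left out.

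Irf8, the interferon regulatory factor that turns progenitors from granulocytes toward monocytes and classical dendritic cells, had its highest level in NK cells, at 585 CPM (546 to 626) in the control and 621 CPM (579 to 665) in the AdipoΔ/Δ library. Dendritic cells followed at 505 and 483 CPM, and the intervals of both classes overlapped in the control but not in the AdipoΔ/Δ library. Among monocytes and macrophages, Ly6C high cells had the most Irf8 (243 and 205 CPM), and both Ly6C low clusters had less, with 169 and 144 CPM in the first and 144 and 165 CPM in the second. The macrophage cluster with no subset had 161 and 190 CPM, resident macrophages 133 and 131 CPM and lipid-associated macrophages 70.7 and 82.9 CPM. Matrix macrophages had the least Irf8 of the macrophage clusters, at 10.9 and 22.8 CPM. Matrix macrophages held 0.0787 (0.0157 to 0.243) times the Irf8 level of the other macrophages in the control library and 0.195 (0.130 to 0.283) times in the AdipoΔ/Δ library, with conditional binomial intervals for the ratio of sums. Neutrophils had 3.75 and 4.08 CPM, at a share of cells of 1.27% and 1.17%, against 29.8% and 36.0% of dendritic cells and 68.2% and 62.1% of Ly6C high cells. Median depths were 2969 and 2695 UMIs in neutrophils and 5249.5 and 5084 in dendritic cells. After thinning to 1000 UMIs, the shares were 0.234% and 0.0817% in neutrophils (21 and 16 cells left out), 20.3% and 23.2% in dendritic cells (0 and 3 left out) and 20.1% and 19.5% in Ly6C high cells. The dendritic class thus held more Irf8 than the Ly6C high class, while the thinned shares of cells were near each other.

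Cebpa, which drives granulocyte and monocyte progenitors, had like levels in several classes. Lipid-associated macrophages had 177 and 169 CPM, resident macrophages 119 and 141 CPM, matrix macrophages 101 and 134 CPM, Ly6C high cells 100.0 and 112 CPM and the macrophage cluster with no subset 69.0 and 141 CPM, and neighbours in the order of levels had overlapping intervals in both libraries. The control value of lipid-associated macrophages rested on 5 Cebpa UMIs, of which a single cell held 3. The first Ly6C low cluster had less Cebpa, at 25.4 CPM (15.1 to 40.2) in the control and 23.4 CPM (12.5 to 40.0) in the AdipoΔ/Δ library. Its ratio to the Ly6C high level was 0.254 (0.148 to 0.410) in the control and 0.210 (0.109 to 0.371) in the AdipoΔ/Δ library, the lowest of the 9 members. A Cebpa UMI was found in 45.5% and 45.1% of Ly6C high cells, or 9.50% and 10.4% after thinning to 1000 UMIs. None of 208 and 175 NK cells, at the depths given above, held a Cebpa UMI, with Clopper-Pearson upper limits of 1.76% and 2.09% of cells with a UMI.

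Nr4a1, Pou2f2, Klf4 and Cebpb were higher in Ly6C low than in Ly6C high monocytes in both libraries. The comparison of Ly6C low with Ly6C high monocyte-like cells within each library asks how the fate factors differ between the circulating monocyte types found in BAT. Nr4a1 was 3.95 (3.54 to 4.41) times as high in Ly6C low cells in the control library and 4.43 (3.72 to 5.31) times in the AdipoΔ/Δ library. Pou2f2, which encodes the octamer-binding factor Oct-2, was 2.87 (2.62 to 3.15) and 3.24 (2.84 to 3.70) times as high, and Klf4, a Krüppel-like factor needed for monocyte differentiation, 2.48 (2.21 to 2.79) and 2.54 (2.13 to 3.05) times. Cebpb, the C/EBP that keeps Ly6C low monocytes alive, stood at 2.11 (2.01 to 2.22) and 1.73 (1.62 to 1.85) times. These 4 members were past 1.5-fold upward in both libraries, and Irf8 (0.638, 0.550 to 0.738, and 0.755, 0.619 to 0.920) and Cebpa (0.478, 0.368 to 0.617, and 0.543, 0.400 to 0.731) lay below 1 in both.

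In the control library 8 of 9 members were past 1.5-fold, 4 higher and 4 lower in Ly6C low cells, and of the 6357 genes with at least 50 UMIs over both sides 27.5% were. In the AdipoΔ/Δ library 6 of 9 members were past it, 4 higher and 2 lower, beside 27.0% of 5095 genes. The median log2 ratio of the members was 0.53 and 0.33, and that of all genes 0.01 and 0.00. Irf4 was at 0.523 (0.269 to 0.965) in the control and at 0.635 (0.344 to 1.15) in the AdipoΔ/Δ library, where its interval held 1; with at least 500 detected genes per cell its ratio in the AdipoΔ/Δ library was 1.01, and with a mitochondrial limit of 5% that in the control library was 0.703. Over 16 alternatives the Irf4 ratio of the AdipoΔ/Δ library was past 1.5-fold on the lower side in 7 and ranged from 0.419 to 1.01. Irf8 in the control library was no longer past 1.5-fold with 2% as the mitochondrial limit (0.762), at a resolution of 0.5 (0.770) or with the listed genes kept among the clustering features (0.674). With at least 500 detected genes, Cebpa in the AdipoΔ/Δ library was at 0.724, and Irf8 there was at 1.02, no longer below 1. Of the other listed transcription factors that entered, 14 higher and 6 lower of 42 were past 1.5-fold in the control and 15 higher and 5 lower of 40 in the AdipoΔ/Δ library. They included Nr1h3, which encodes the sterol sensor LXR alpha, at 23.1 (10.8 to 58.7) and 7.03 (3.82 to 14.2) times, and Pparg, the fatty acid-sensing nuclear receptor, at 8.74 (4.28 to 20.1) and 5.40 (2.96 to 10.6) times. Of the listed target genes, 3 higher and 2 lower of 9 and 6 higher and 1 lower of 12 were past it. Bcl2, the survival gene of Ly6C low monocytes, was at 17.2 (9.28 to 35.2) and 17.5 (6.55 to 66.2) times and the chemokine receptor gene Cx3cr1 at 1.98 and 2.38 times. Without the Ly6C high cell with the most Bcl2, the Bcl2 ratio in the control library was 37.6 (15.7 to 118).

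Within the Ly6C low class, the levels differed between the clusters. Nr4a1 was 987 CPM (915 to 1063) in the control and 911 CPM (834 to 994) in the AdipoΔ/Δ library in the first cluster, 541 and 284 CPM in the second and 184 and 132 CPM in Ly6C high cells, so that the second cluster lay between the others. A Nr4a1 UMI was present in 79.7% and 72.6% of cells of the first cluster, 76.0% and 46.6% of the second and 47.3% and 39.2% of Ly6C high cells. T cells, at median depths of 3488 and 3645 UMIs, held one in 1.98% and 2.07% of cells, where the Ly6C low clusters had depths of 2369 and 1881 and 5170 and 4479 UMIs. Nr4a1 was at 3.43 and 2.70 CPM in the T cell cluster led by Dapl1 and at 8.25 and 27.2 CPM in that led by Trac. Whether the share in T cells was background was not tested. After thinning to 1000 UMIs the shares were 56.8% and 54.2%, 38.7% and 22.3%, 14.8% and 11.5% and, in T cells, 0.462% and 0.883%. This left out 37 and 41 cells of the first cluster, 5 and 6 of the second, 6 and 5 Ly6C high cells and 32 and 24 T cells. The order of the 3 monocyte clusters was the same before and after thinning. Cebpb had 2825 and 2569.9 CPM in the first cluster, 2105 and 1439 CPM in the second, 1354 and 1938 CPM in neutrophils and 1137 and 1146 CPM in Ly6C high cells, and lymphocytes had far less, with 33.3 and 40.3 CPM in T cells. Pou2f2 had 1219 and 1315 CPM, 542 and 344 CPM and 286 and 251 CPM in the first cluster, the second cluster and Ly6C high cells, and 401 and 412 CPM in B cells, where Oct-2 is a classical factor. Klf4 had 643 and 611 CPM, 343 and 157 CPM and 188 and 147 CPM in the same monocyte clusters. The first cluster was the highest of all clusters for these 4 members in both libraries, without overlap of its interval with the next.

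The plot of Ly6C low over Ly6C high ratios shows for Nr4a1, Pou2f2, Klf4 and Cebpb a larger distance to the Ly6C high level in the first cluster than in the second. Spi1 went the other way, at 1.38 and 1.16 in the first and 1.48 and 1.21 in the second cluster, as did Irf8 in the control library, at 0.699 and 0.595. For Nr4a1 the first cluster was 5.37 (4.77 to 6.06) and 6.90 (5.75 to 8.31) times the Ly6C high level, and the second 2.94 (2.59 to 3.34) and 2.15 (1.72 to 2.69) times. For Klf4 the first was at 3.41 (2.99 to 3.89) and 4.14 (3.44 to 5.00), and the second at 1.82 (1.58 to 2.10) in the control and 1.06 (0.819 to 1.38) in the AdipoΔ/Δ library, where the interval held 1. For Maf, the large Maf factor of mature macrophages, the clusters lay on opposite sides of 1 in the AdipoΔ/Δ library, with the first at 0.349 (0.209 to 0.557) and the second at 2.10 (1.63 to 2.69), and on the same side in the control library, at 0.279 (0.131 to 0.530) and 0.825 (0.567 to 1.18). With the second cluster left out, an alternative added after seeing the data, the Ly6C low over Ly6C high ratio was thus 0.279 and 0.349 for Maf, 0.254 and 0.210 for Cebpa and 0.699 for Irf8 in the control library. In the AdipoΔ/Δ library, Nr4a1, Pou2f2 and Klf4 then stood at 6.90, 5.25 and 4.14. Maf with both clusters was at 0.599 (0.425 to 0.835) and 1.26 (0.988 to 1.60), at 2.26 in the AdipoΔ/Δ library with at least 500 detected genes, and at 0.287 and 0.258 at a resolution of 0.5. At that resolution Cebpa stood at 0.278 and 0.234, and Klf4 in the AdipoΔ/Δ library at 4.03. With the mean of per-cell CPM in place of summed UMIs, Cebpa in the AdipoΔ/Δ library was at 0.298.

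**Figure D2:**
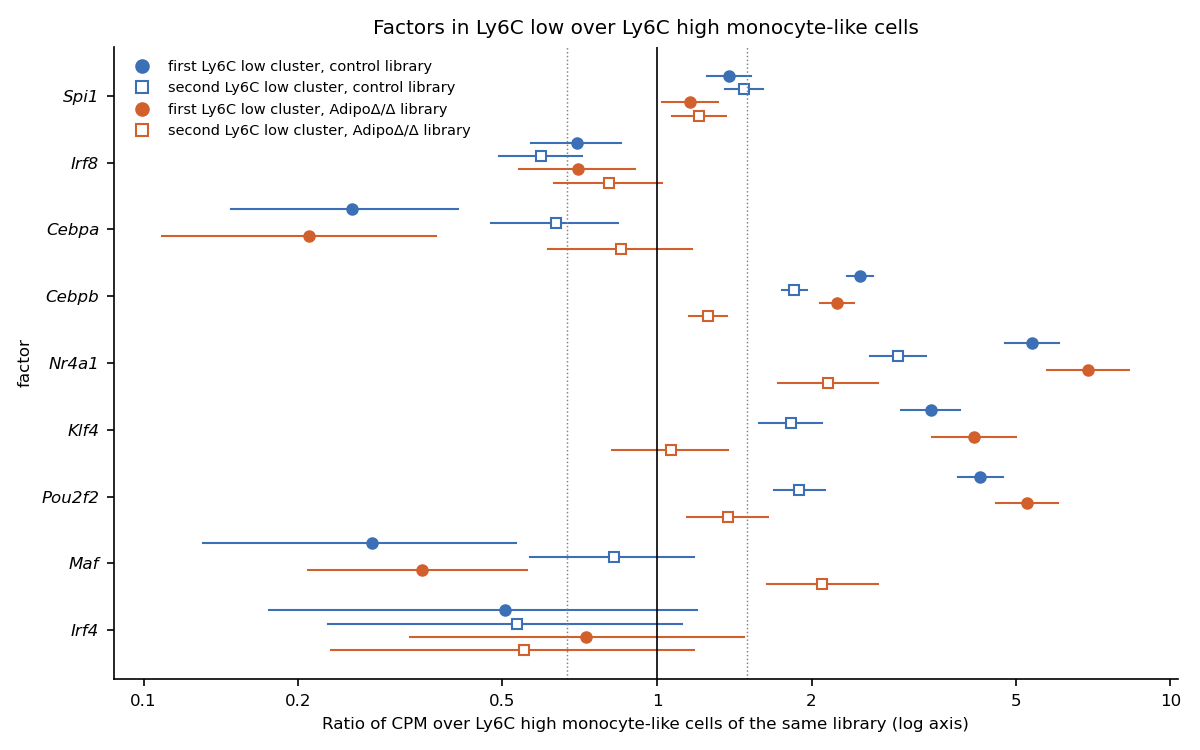
Ratio of the level in each Ly6C low cluster to that in Ly6C high cells (log axis) for the members, with the first cluster as filled circles, the second as open squares, both libraries, and 95% conditional binomial intervals. For Nr4a1, Pou2f2, Klf4 and Cebpb the first cluster lay farther above 1 than the second in both libraries, at 5.37 against 2.94 for Nr4a1 in the control library.

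Nr4a1, Klf4 and Cebpb are also known as genes that respond within minutes to stimulation, including tissue digestion, and a list of 22 immediate early genes that holds no member was read beside them. The list summed to 3463 and 3458 CPM in Ly6C high cells, 3295 and 4167 CPM in the first Ly6C low cluster and 3164 and 3027 CPM in the second. In the control library the summed level was thus lower in the first cluster than in Ly6C high cells, while Nr4a1 was 5.37 times as high, and in the AdipoΔ/Δ library both were higher in the first cluster. Fos, the classical immediate early gene, was at 65.0 and 88.2 CPM in the first cluster and at 645 and 517 CPM in Ly6C high cells, the reverse order of Nr4a1. Egr1, of the same list, had the order of Nr4a1, at 29.7 and 59.4 CPM in the first cluster and 5.72 and 3.41 CPM in Ly6C high cells. Neutrophils had the highest summed level of these 4 groups of cells, at 19063 and 24736 CPM, with Nr4a1 at 76.0 and 141 CPM. Between Ly6C low and Ly6C high cells, 5 higher and 5 lower of 18 immediate early genes were past 1.5-fold in the control and 6 higher and 3 lower of 18 in the AdipoΔ/Δ library, with Dusp2, a phosphatase gene, at 9.70 (5.97 to 16.6) and 3.90 (2.29 to 6.96) times.

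Within a cluster, the cells were also divided by the share of their UMIs from the immediate early list into 3 equal groups, lowest, middle and highest, a division chosen after seeing the data. In control Ly6C high cells, Nr4a1 was 88.4, 110.2 and 343 CPM in the lowest, middle and highest group, and in AdipoΔ/Δ Ly6C high cells 82.6, 97.9 and 205 CPM. In the first Ly6C low cluster it was 795, 888 and 1296 CPM in the control and 764, 787 and 1156 CPM in the AdipoΔ/Δ library. The second cluster gave 266, 472 and 884 CPM and 189, 294 and 353 CPM. Nr4a1 was thus higher where other immediate early genes were higher. In the control library the lowest group of the first cluster had 795 (681 to 924) CPM and the highest group of the Ly6C high cells 343 (305 to 385) CPM. Cebpb followed the same order, with 686, 1026 and 1669.8 CPM in control Ly6C high cells and 2146, 2856 and 3449.7 CPM in the control first cluster. Klf4 differed less, at 629, 651 and 646 CPM in the control first cluster and 136, 177 and 249 CPM in control Ly6C high cells. In the second cluster it was at 263, 383 and 369 CPM in the control and, in falling order with overlapping intervals, 194, 143 and 141 CPM in the AdipoΔ/Δ library. Pou2f2, which was read beside them, was at 1170.0, 1236 and 1246 CPM in the control first cluster. It was higher with the immediate early share in control Ly6C high cells, at 214, 304 and 338 CPM, and in the second cluster, at 340.4, 539 and 735 CPM in the control and 283, 307 and 439 CPM in the AdipoΔ/Δ library. The plot of the levels against the immediate early share shows these groups for Nr4a1, Cebpb and Klf4. Whether the digestion raised any of these levels was not tested.

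**Figure D3:**
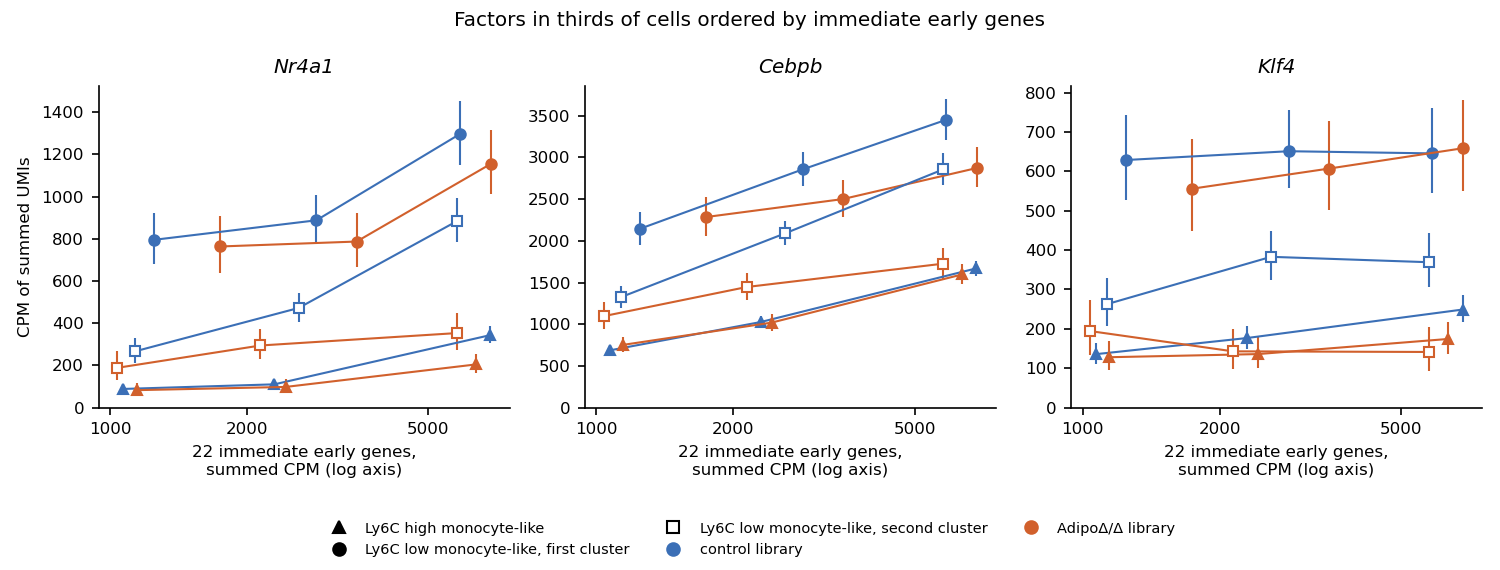
Level of Nr4a1, Cebpb and Klf4 (CPM) against the summed level of 22 immediate early genes (CPM) in the lowest, middle and highest of 3 equal groups of cells, for monocyte clusters of both libraries, with 95% Poisson intervals. Nr4a1 in control Ly6C high cells was 88.4 CPM in the lowest and 343 CPM in the highest group, both below the 795 CPM of the lowest group of the first Ly6C low cluster.

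The promoters of the members were compared by their letters. Those of Nr4a1, Cebpb and Klf4, members higher in Ly6C low cells, are shown because they held TGACG, a choice made after the matches were seen. RefSeq sequences of GRCm38.p6, 250 bases before to 50 bases after the start, were matched by symbol for 7 of the 9 members, with 8 promoters in all since Irf8 has 2, and Maf and Spi1 had no entry. The promoters were searched on both strands for 4 motifs chosen after the levels were seen. TGACG, read as CGTCA on the other strand, the core of the cyclic AMP response element, is held by 20.8% of the 32851 promoters of the same length. It matched 4 times in the Nr4a1 promoter, at 233, 213, 69 and 40 bases before the start, 3 times in that of Cebpb, at 180, 53 and 7 bases before it, and once in that of Klf4, at 232 bases before it. At least 3 matches are held by 1.03% of all promoters and at least 4 by 0.231%. No promoter of the other 4 matched members held it, among them Pou2f2, which was also higher in Ly6C low cells. The RefSeq start of Pou2f2 lies inside its longer GENCODE gene, as does that of Nr4a1, and the bases before the GENCODE starts were not searched. CCACCC, read as GGGTGG on the other strand, a letter run bound by Krüppel-like factors, is held by 31.5% of promoters and matched in those of Cebpa, Cebpb and Pou2f2. TTGCNNAA, read as TTNNGCAA on the other strand, a C/EBP letter run, and GAGGAAG, read as CTTCCTC, a PU.1 letter run, are held by 10.8% and 13.6% of promoters and matched in no member's window. A match describes letters and not a bound site. The 3 promoters with TGACG follow, 5′ to 3′ on the strand of the gene with the matches on either strand in capitals, for Nr4a1 at chr15:101266596-101266895 (plus strand), Cebpb at chr2:167688665-167688964 (plus strand) and Klf4 at chr4:55532426-55532725 (minus strand).
Nr4a1: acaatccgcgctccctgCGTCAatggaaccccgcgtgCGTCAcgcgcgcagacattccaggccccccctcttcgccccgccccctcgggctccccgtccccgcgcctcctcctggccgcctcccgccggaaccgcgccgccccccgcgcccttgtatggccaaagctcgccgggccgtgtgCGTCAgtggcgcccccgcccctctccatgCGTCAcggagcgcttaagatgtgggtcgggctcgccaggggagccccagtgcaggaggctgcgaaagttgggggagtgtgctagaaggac
Cebpb: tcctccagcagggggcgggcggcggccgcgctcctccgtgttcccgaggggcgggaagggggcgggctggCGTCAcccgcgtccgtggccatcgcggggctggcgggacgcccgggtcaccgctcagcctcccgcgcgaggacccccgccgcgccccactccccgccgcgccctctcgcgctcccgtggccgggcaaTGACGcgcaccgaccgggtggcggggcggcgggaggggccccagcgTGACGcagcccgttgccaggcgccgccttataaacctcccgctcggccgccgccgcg
Klf4: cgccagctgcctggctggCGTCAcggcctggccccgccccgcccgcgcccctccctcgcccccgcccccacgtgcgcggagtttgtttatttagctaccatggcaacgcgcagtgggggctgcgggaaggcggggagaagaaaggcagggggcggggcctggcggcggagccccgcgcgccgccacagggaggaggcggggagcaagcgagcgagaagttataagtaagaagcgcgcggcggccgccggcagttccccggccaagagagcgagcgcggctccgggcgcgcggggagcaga

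Maf and Irf4 were higher in macrophages than in Ly6C high monocytes in both libraries. The comparison of macrophage-like with Ly6C high monocyte-like cells asks how the factors differ between tissue macrophages and the monocytes that can give rise to them. Maf was 9.97 (8.08 to 12.4) times as high in macrophages in the control library and 4.18 (3.49 to 5.04) times in the AdipoΔ/Δ library. Irf4, known from alternatively activated macrophages and from a branch of dendritic cells, was 5.83 (3.87 to 8.86) and 2.24 (1.54 to 3.36) times as high. The other direction held for Cebpb, at 0.404 (0.358 to 0.456) and 0.278 (0.257 to 0.300), for Irf8, at 0.345 (0.256 to 0.456) and 0.404 (0.341 to 0.480), for Nr4a1, at 0.598 (0.459 to 0.770) and 0.336 (0.268 to 0.420), and for Pou2f2, at 0.519 (0.415 to 0.644) and 0.341 (0.290 to 0.401). Spi1 stood at 0.677 (0.590 to 0.775) and 0.652 (0.596 to 0.714), while Cebpa (1.04 and 1.31) and Klf4 (0.823 and 0.877) differed less.

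In the control library 6 of 9 members were past 1.5-fold, 2 higher and 4 lower in macrophages, beside 40.4% of 5683 genes. In the AdipoΔ/Δ library 7 of 9 were, 2 higher and 5 lower, beside 38.0% of 7357 genes. The median log2 ratio was -0.56 and -0.62 over the members and -0.08 and 0.03 over all genes, and TMM scaling lowered the log2 ratios of the control library by 0.16. In the control library a mitochondrial limit of 2%, with classes drawn anew, gave 1.05 for Maf, 3.15 for Irf4, 0.624 for Irf8, 0.761 for Cebpb, 0.907 for Nr4a1 and 0.869 for Pou2f2. With the macrophage cluster that met no subset list left out, also added after seeing the data, Nr4a1 and Pou2f2 in the control library were at 0.179 and 0.278. Their control ratios were 0.172 and 0.302 with at least 500 detected genes and 0.832 and 0.770 with the mean of per-cell CPM, which also gave 0.534 for Irf8. Nr4a1 in the control library was at 0.334 at a resolution of 0.5, 0.299 without integration and 0.376 with the listed genes kept. Spi1 in the control library, not past 1.5-fold at 0.677, was past it on the lower side in 11 of 16 alternatives. Spi1 in the AdipoΔ/Δ library was no longer past 1.5-fold at a mitochondrial limit of 5% (0.683) or with at least 500 detected genes (0.671). Of the other listed factors, 7 higher and 13 lower of 36 and 8 higher and 18 lower of 43 were past 1.5-fold, with Irf7, of the interferon response, at 0.402 (0.275 to 0.571) and 0.130 (0.105 to 0.159) times. Of the immediate early genes 5 higher and 5 lower of 17 and 6 higher and 3 lower of 21 were, and of the target genes 5 higher and 4 lower of 12 and 5 higher and 4 lower of 12. Among the targets, the monocyte gene Ly6c2 was at 0.0584 (0.0427 to 0.0781) and 0.0143 (0.0114 to 0.0176) times.

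Macrophage subsets differed in these factors. Maf was 1361 CPM (1208 to 1528) in the control and 1187 CPM (1118 to 1259) in the AdipoΔ/Δ library in resident macrophages and 32.6 and 75.9 CPM in matrix macrophages. Resident cells held 15.2 (10.8 to 21.8) times the Maf level of the other macrophages in the control library and 5.78 (5.23 to 6.41) times in the AdipoΔ/Δ library. A Maf UMI was found in 75.9% and 86.2% of resident cells (median depth 2616 and 5939 UMIs) and in 1.27% and 2.92% of neutrophils (median depth 2969 and 2695 UMIs). After thinning to 1000 UMIs these shares were 58.4% and 60.4% in resident cells, with 3 and 7 cells left out, and 0.393% and 1.21% in neutrophils, with 21 and 16 left out. Lipid-associated macrophages of the AdipoΔ/Δ library had 288 CPM (257 to 322) of Maf, and the 12 control cells of this subset held 3 UMIs of it. Maf was thus highest in the resident subset in both libraries. Irf4 was highest in matrix macrophages, at 159 and 116 CPM, and in the AdipoΔ/Δ library the interval overlapped that of plasma cells (98.7 CPM, 58.5 to 156), which need IRF4. Matrix cells held 3.10 (1.77 to 5.62) and 3.91 (2.94 to 5.26) times the Irf4 level of the other macrophages. An Irf4 UMI was found in 51.0% and 37.7% of matrix cells (median depth 3998 and 5972 UMIs), or 18.5% and 10.0% after thinning, and in 0.318% and 0.585% of neutrophils, or 0.0485% and 0.375% after thinning. Thinning left out 0 and 8 matrix cells. Dendritic cells (61.9 and 53.7 CPM), resident macrophages (56.9 and 43.5 CPM) and the macrophage cluster with no subset (53.7 and 51.7 CPM) had lower levels with overlapping intervals. Lipid-associated macrophages had 10.9 CPM (5.65 to 19.1) in the AdipoΔ/Δ library and no Irf4 UMI in the control library (0 to 130.3 CPM). Pou2f2 was absent from the control matrix cells at this depth, with 0 UMIs (0 to 13.4 CPM), and stood at 31.7 CPM (22.9 to 42.7) in those of the AdipoΔ/Δ library, against 189.6 and 153 CPM in resident cells.

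The comparison of the AdipoΔ/Δ with the control library within a class asks whether the fate factors of the same kind of cell differ between the libraries. Only the AdipoΔ/Δ mice received tamoxifen, so loss of ATGL in adipocytes and tamoxifen itself cannot be told apart here. In macrophages, Nr4a1 was 0.403 (0.304 to 0.540) times, Pou2f2 0.575 (0.456 to 0.730) times and Irf4 0.627 (0.473 to 0.842) times the control level. Cebpb stood at 0.692 (0.609 to 0.788) and Cebpa, in the other direction, at 1.41 (1.10 to 1.85). Spi1 (1.01, 0.879 to 1.15), Irf8 (0.993, 0.742 to 1.35) and Maf (0.896, 0.795 to 1.01) were near 1, and Klf4 was at 0.835 (0.672 to 1.05). Thus 3 of 9 members were past 1.5-fold, all of them lower, beside 26.8% of 7071 genes. Members had a median log2 ratio of -0.26, and all genes 0.10.

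These class values joined clusters that differed, as the plot of ratios by cluster shows. In the macrophage cluster that met no subset list, Nr4a1 was 414 CPM in the control and 86.2 CPM in the AdipoΔ/Δ library, a ratio of 0.208 (0.129 to 0.331), and Cebpb was at 0.488 (0.384 to 0.620) and Maf at 2.17 (1.43 to 3.39). In matrix macrophages Nr4a1 was at 3.32 (1.47 to 9.28) and Maf at 2.33 (1.18 to 5.24). Without the AdipoΔ/Δ cell that held the most Nr4a1, the Nr4a1 ratio was 2.18 (0.949 to 6.17). Without the control cell that held the most, it was 6.55 (2.18 to 32.3). The 22 immediate early genes summed to 2483 and 4055 CPM in matrix macrophages. In the cluster with no subset, where Nr4a1 was lower, they summed to 4035 and 4568 CPM. Whether they had a part in the Nr4a1 ratios was not tested. Resident macrophages had a Maf ratio of 0.872 (0.766 to 0.997), or 0.947 (0.826 to 1.09) without the control cell with the most Maf. In lipid-associated macrophages Cebpb was at 0.259 (0.178 to 0.390), with 12 control cells. Irf4 was at 0.731 (0.520 to 1.05) in matrix and 0.765 (0.395 to 1.60) in resident macrophages, and no macrophage cluster had an Irf4 interval that left out 1. Lipid-associated cells, which had little Irf4, held 4.38% of macrophage UMIs in the control and 29.3% in the AdipoΔ/Δ library. The cluster with no subset had a median mitochondrial share of 1.11% and 4.07% of UMIs and held 20.2% of macrophage UMIs in the control and 9.29% in the AdipoΔ/Δ library. Its monocyte and neutrophil markers moved with the result. The 10 Ly6C low markers, all with a UMI, summed to 2270.4 CPM in the control and 1018 CPM in the AdipoΔ/Δ cells of the cluster, led by Gngt2 at 621 and Ear2 at 448 CPM. Its 7 Ly6C high markers summed to 3337 and 1328 CPM, with Vcan at 0 UMIs in the control library, led by Plac8 at 1787 and Ccr2 at 862 CPM, and the 9 neutrophil markers to 2163 CPM and 377 CPM, with Ly6g at 0 UMIs in both libraries and the other markers detected, led by S100a9 at 982 and S100a8 at 152 CPM. The 10 macrophage markers went the other way, from 3268 to 4511 CPM, led by Apoe at 1887 and 1136 CPM. In resident macrophages the neutrophil markers also differed, at 3177 CPM with 9 of 9 detected and 259 CPM with 7 of 9 detected, Ly6g and Hdc being at 0 UMIs in the AdipoΔ/Δ library. Per 100 UMIs of the Ly6C low markers, the cluster held 18.2 and 8.47 Nr4a1 UMIs, and the first Ly6C low cluster 12.3 and 10.6. For Pou2f2 these values were 18.6 and 23.2 beside 15.2 and 15.2. The part of monocyte or neutrophil RNA in the macrophage ratios was not tested. With the cluster left out, the ratio of the AdipoΔ/Δ to the control level in the remaining macrophages was 1.21 for Nr4a1 and 0.881 for Pou2f2.

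Other choices also ended or turned calls in macrophages. Nr4a1 was at 1.25 with at least 500 detected genes, 0.695 at a mitochondrial limit of 5% and 0.789 without integration, and it was past 1.5-fold on the lower side in 13 of 17 alternatives. Pou2f2 was at 0.792 with at least 500 detected genes, 0.690 at a resolution of 2, 0.869 without integration, 0.706 with the listed genes kept among the features, 0.719 with the mean of per-cell CPM and 0.722 with each macrophage cluster at equal weight. At a mitochondrial limit of 2% the clusters were drawn anew, and of 115 control and 164 AdipoΔ/Δ cells in the macrophage class, 181 were macrophage-like before. In this redrawn class Maf was at 4.67, Irf4 at 1.24, Irf8 at 0.647 and Pou2f2 at 0.321. Irf4 was at 0.825 with the clusters at equal weight. The 3 calls among the members in macrophages thus each ended under at least 1 of the alternatives run. Of the other listed factors in macrophages, 3 higher and 6 lower of 42 were past 1.5-fold, with Pparg at 2.74 (1.45 to 5.83), Nr1h3 at 2.37 (1.32 to 4.68), or 4.04 without the control cell with the most Nr1h3, and Klf2 at 0.574 (0.501 to 0.660). Of the immediate early genes 7 higher and 1 lower of 21 were, among them Egr2 at 3.12 (1.75 to 6.13) and Fosb at 0.464 (0.357 to 0.607), which was 0.672 without the control cell with the most Fosb, and of the targets 0 higher and 4 lower of 13, among them Bcl2 at 0.327 (0.183 to 0.603) and Ly6c2 at 0.345 (0.240 to 0.503).

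**Figure D4:**
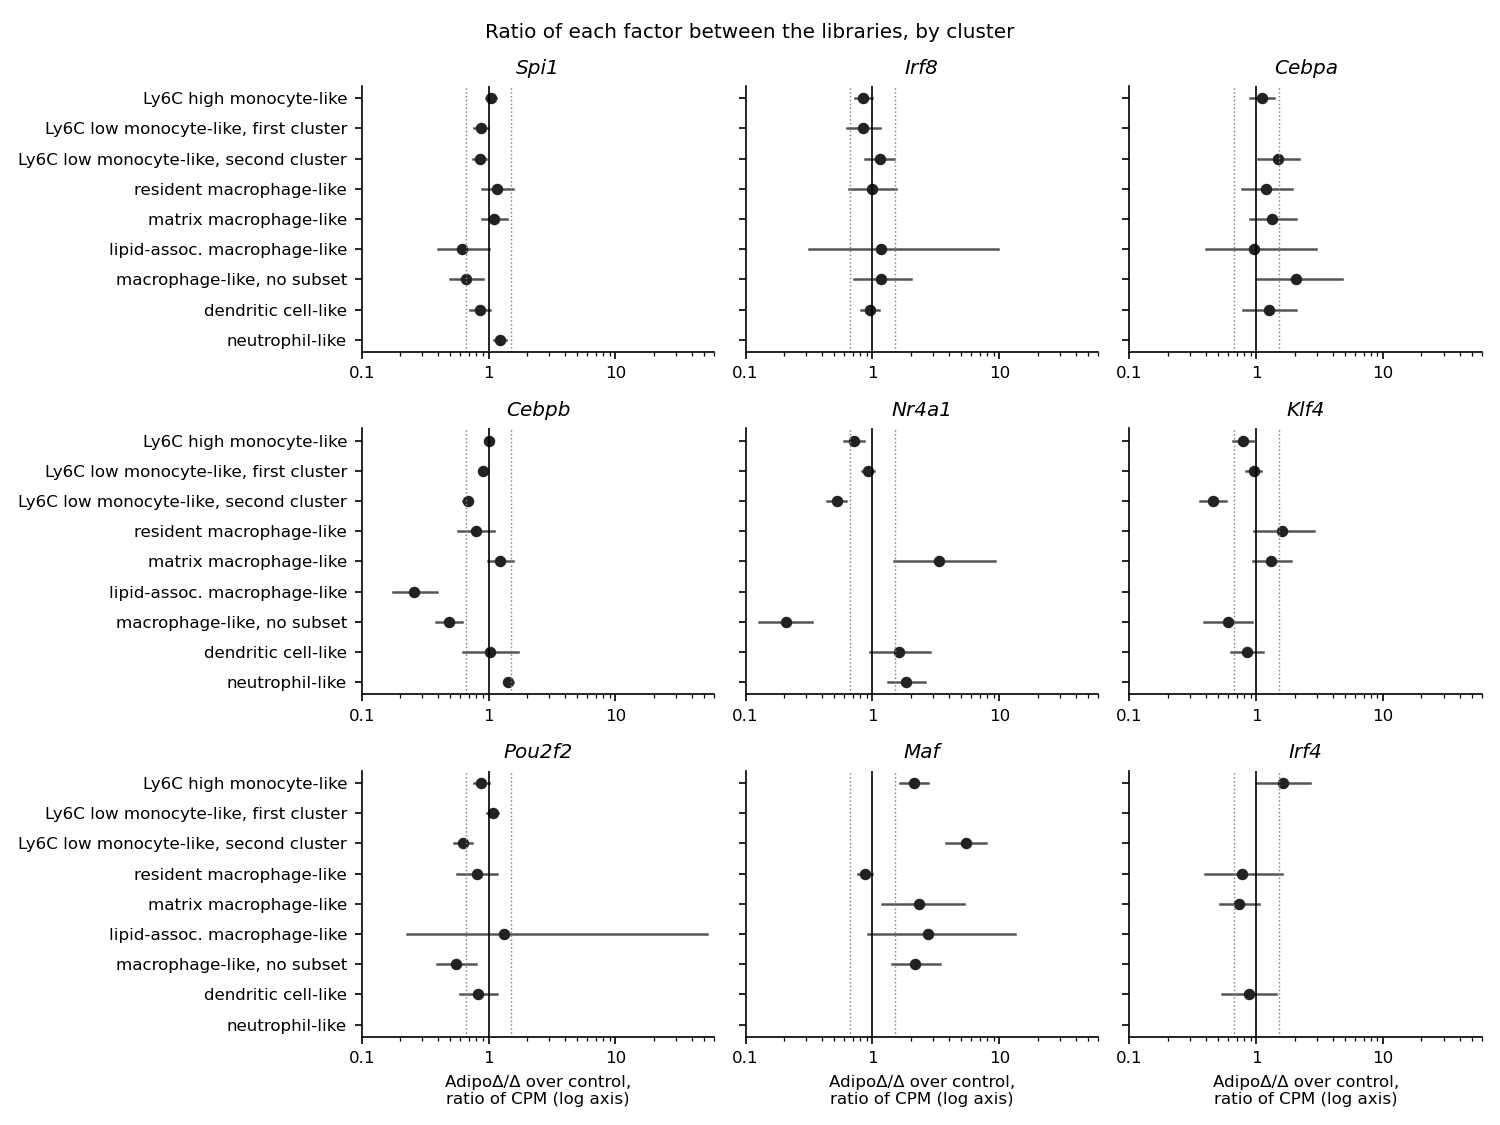
Ratio of the AdipoΔ/Δ to the control level (log axis) of each member in the 9 monocyte, macrophage, dendritic and neutrophil clusters, where it had at least 50 UMIs over both libraries, with 95% conditional binomial intervals and dotted lines at 1.5-fold. Maf was above 1 in Ly6C high cells (2.14) and in the second Ly6C low cluster (5.44) and below 1 in resident macrophages (0.872), and Nr4a1 lay on both sides of 1.

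In Ly6C high monocytes 2 of 9 members were past 1.5-fold between the libraries, both higher in the AdipoΔ/Δ library, beside 11.7% of 6076 genes. Maf was 50.6 CPM (42.1 to 60.4) in the control and 108 CPM (90.2 to 129) in the AdipoΔ/Δ library, a ratio of 2.14 (1.66 to 2.76), and Irf4 was at 1.63 (0.993 to 2.65), with an interval that held 1. Maf was at 1.04 with a mitochondrial limit of 2%, and Irf4 at 1.47 with that limit, 1.34 with the mean of per-cell CPM, 1.44 without the AdipoΔ/Δ cell with the most Irf4 and 1.48 with TMM scaling. Nr4a1 (0.719, 0.595 to 0.865), Klf4 (0.783, 0.654 to 0.935) and Irf8 (0.847, 0.726 to 0.985) were lower and not past 1.5-fold, and Irf8 was at 1.08 with a mitochondrial limit of 5% and 1.00 with a resolution of 0.5. At that resolution Nr4a1 was at 0.639 and Klf4 at 0.656. On the lower side Nr4a1 was past 1.5-fold in 3 of 15 alternatives and Klf4 in 1. Spi1 (1.04), Cebpa (1.12), Cebpb (1.01) and Pou2f2 (0.875) differed less. TMM scaling lowered the log2 ratios here by 0.13. Members had a median log2 ratio of 0.01, and all genes 0.09. Of the other factors 2 higher and 1 lower of 36 were past 1.5-fold, with Irf7 at 2.06 (1.76 to 2.41), of the immediate early genes 4 higher and 0 lower of 17, with the heat shock gene Hspa1a at 1.96 (1.49 to 2.57), and of the targets 2 higher and 0 lower of 9, with C1qb, of complement, at 4.46 (2.63 to 7.77). A single control cell held 16 of the 22 control C1qb UMIs, and without it the C1qb ratio was 16.3 (6.94 to 46.6). C1qb was at 8.98 and 40.1 CPM in Ly6C high cells. Dendritic cells had 3.87 and 38.9 CPM of it and neutrophils 15.0 and 28.6 CPM. The part of free RNA in the C1qb ratio was not tested.

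In Ly6C low monocytes 1 of 8 entering members was past 1.5-fold between the libraries, beside 12.0% of 5450 genes. This was Maf, at 4.48 (3.26 to 6.26). Irf4, with 35 UMIs over both libraries, did not enter. Spi1 (0.860, 0.789 to 0.938), Cebpb (0.826, 0.784 to 0.869), Nr4a1 (0.807, 0.734 to 0.887) and Klf4 (0.803, 0.713 to 0.904) were lower without passing it, Irf8 (1.00) and Pou2f2 (0.987) stood near 1, and Cebpa was at 1.27 (0.908 to 1.76). Here too the clusters differed. In the second cluster Maf was at 5.44 (3.82 to 7.88), Nr4a1 at 0.525 (0.439 to 0.624), Klf4 at 0.457 (0.360 to 0.576), Pou2f2 at 0.634 (0.538 to 0.746) and Cebpb at 0.684 (0.631 to 0.741). In the first cluster Nr4a1 (0.923, 0.822 to 1.04), Pou2f2 (1.08) and Cebpb (0.910, 0.849 to 0.974) were near 1, as was Klf4, whose interval held 1. With the second cluster left out, Maf in Ly6C low cells was at 2.68 from fewer than 50 UMIs, and at a resolution of 0.5 it was at 2.71. The median log2 ratio was -0.11 over the members and 0.08 over all genes, and TMM scaling lowered the log2 ratios by 0.13. Of the other factors 3 higher and 1 lower of 42 were past 1.5-fold, with Spic, a relative of Spi1, at 2.23 (1.47 to 3.41), and of the immediate early genes 7 higher and 1 lower of 18, with Nfkbia, an inhibitor of NF-kappa B, at 0.638 (0.570 to 0.713). Of the targets 4 higher and 0 lower of 12 were, with Cd14 at 7.72 and C1qa at 68.3 (31.0 to 188). A single AdipoΔ/Δ cell held 139 of the 276 C1qa UMIs, and without it the C1qa ratio was 34.7 (15.6 to 96.3). C1qa was at 2.82 and 37.8 CPM in the first cluster and 3.98 and 426 CPM in the second. Dendritic cells had 0 and 12.1 CPM of it and neutrophils 16.9 and 30.6 CPM. The part of free RNA in the C1qa ratio was not tested.

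Dendritic cells and neutrophils gave values of their own. In dendritic cells 1 of 8 entering members was past 1.5-fold, beside 16.8% of 2646 genes. This was Nr4a1 at 1.62 (0.953 to 2.84), with an interval that held 1. It stood at 1.38 without the AdipoΔ/Δ cell that held the most of it, and at 2.23 (1.23 to 4.27) without the control cell that held the most. Nr4a1 was at 0.930 with a mitochondrial limit of 2%, 1.36 with 30 principal components, 1.49 without integration and 1.49 with TMM scaling. Irf8 in dendritic cells was at 0.958 (0.814 to 1.13), at 0.618 with a mitochondrial limit of 5% and at 1.54 with the mean of per-cell CPM, which gave 0.532 for Cebpb. The other 7 entering members of dendritic cells lay between 0.831 and 1.27. Over the 8 members the median log2 ratio was -0.13 and over all genes 0.10, with a TMM shift of 0.12 downward. In neutrophils 1 of 3 entering members was past it, beside 21.7% of 2900 genes. Nr4a1 was at 1.85 (1.32 to 2.59) and Cebpb, which drives emergency granulopoiesis, at 1.43 (1.32 to 1.55), with Spi1 at 1.23 (1.11 to 1.37). TMM scaling lowered the log2 ratios of neutrophils by 0.33, and Nr4a1 was then at 1.48, Cebpb at 1.14 and Spi1 at 0.981. A mitochondrial limit of 2% gave 2.81 for Nr4a1. The median mitochondrial share of neutrophils was 1.72% of UMIs in the control and 0.383% in the AdipoΔ/Δ library. Its part in these ratios was not tested. The median log2 ratio of all genes in neutrophils was 0.26, that of the members 0.52. Of the other factors 11 higher and 0 lower of 30 were past 1.5-fold in neutrophils, with Irf7 at 3.29 (2.16 to 5.07), of the immediate early genes 4 higher and 0 lower of 17, with Ppp1r15a of the stress response at 4.04 (2.64 to 6.28), and of the targets 3 higher and 1 lower of 8. In dendritic cells the counts were 3 higher and 1 lower of 28, 3 higher and 1 lower of 14 and 2 higher and 1 lower of 5 in the same order, with Tcf4, the factor of plasmacytoid dendritic cells, at 2.05 (1.45 to 2.96). Beyond the myeloid classes, Maf was at 2.32 (1.25 to 4.40) in the T cell cluster led by Dapl1 and 1.96 (1.28 to 3.07) in that led by Trac. Both together gave 2.83 (2.01 to 4.04), above either. The Trac cluster had more Maf (82.5 and 162 CPM, beside 16.3 and 37.8 CPM) and held 89 of 353 control and 110 of 242 AdipoΔ/Δ T cells. In NK cells Nr4a1 was at 0.451 (0.293 to 0.680), or 0.750 (0.469 to 1.18) without the control cell with the most Nr4a1. Over all kept cells together Maf was at 3.16 (2.91 to 3.44), Irf4, in the other direction than in macrophages, at 1.88 (1.58 to 2.24), Cebpa at 1.81 (1.61 to 2.04) and Nr4a1 at 0.586 (0.545 to 0.630), which sums classes that take unequal shares of the libraries.

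Maf in monocytes was followed further, with splits chosen after seeing the data. In the second Ly6C low cluster Maf was 41.8 CPM (30.1 to 56.5) in the control and 227 CPM (191 to 269) in the AdipoΔ/Δ library. A Maf UMI was found in 15.1% (10.2 to 21.2%) and 37.3% (28.6 to 46.7%) of the cells, with Clopper-Pearson intervals, or in 3.76% and 16.6% after thinning to 1000 UMIs, which left out 5 and 6 cells. In B cells Maf was 12.2 and 34.0 CPM, from 7 and 8 UMIs, and in plasma cells 0 and 43.9 CPM, from 0 and 8 UMIs. The Maf ratio varied in other cells that were not monocytes or macrophages. It was 1.16 (0.804 to 1.67) in NK cells (42.5 and 49.2 CPM), 0.861 in the unnamed cluster led by Cd7, 4.89 (1.37 to 21.7) in neutrophils (4 and 9 UMIs, or 2.76 without the AdipoΔ/Δ cell with the most Maf), 7.64 (1.11 to 329) in dendritic cells (1 and 11) and 2.32 (1.25 to 4.40) in the T cell cluster led by Dapl1 (19 and 28). Macrophage markers moved with Maf in the second Ly6C low cluster. The 10 macrophage markers summed to 1575 CPM in the control library, with 9 of 10 detected and Mertk at 0 UMIs, and to 4141 CPM in the AdipoΔ/Δ library, with 10 of 10 detected. Apoe was the most abundant at 1073 and 1857 CPM. The 8 resident macrophage markers summed to 63.7 CPM, with 7 of 8 detected and Lyve1 at 0 UMIs, and 182 CPM, led by Clec10a at 38.8 and Mrc1 at 73.5 CPM. Per 100 UMIs of these resident markers, the second cluster held 65.6 and 125 Maf UMIs, and resident macrophages held 16.8 and 15.3. Ly6C high cells held 122 and 69.4, with 9 of 10 and 10 of 10 macrophage markers detected at 1472 CPM, Mertk at 0 UMIs, and 2180.4 CPM, led by Apoe at 976 and 1305 CPM. Per 100 UMIs of C1qa, C1qb and C1qc together, the second cluster held 127 Maf UMIs in the control and 18.2 in the AdipoΔ/Δ library, the opposite order, resident macrophages 14.9 and 10.7, and Ly6C high cells 365 and 117. The summed C1q level of the second cluster was 32.8 and 1251 CPM. With the cell that held the most C1q left out of each library, a choice made after seeing the data, it was 19.9 and 793 CPM, Maf was 41.9 and 233 CPM, and there were 210 and 29.4 Maf UMIs per 100 C1q UMIs, and in Ly6C high cells 807 and 129. Summed C1q was also higher in the AdipoΔ/Δ library in other leukocytes. It was 5.80 and 63.1 CPM in dendritic cells, 6.97 and 51.0 CPM in B cells and 7.66 and 42.4 CPM in NK cells. T cells had 14.4 and 40.3 CPM and neutrophils 49.7 and 81.6 CPM. The part of macrophage RNA or macrophages in the Maf values of the second Ly6C low cluster was not tested.

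Cells were next divided by whether they held a UMI of the complement genes C1qa, C1qb or C1qc, which macrophages make. In cells of the second cluster without such a UMI, Maf was 43.8 (31.6 to 59.3) CPM in 171 control cells and 223 (174 to 282) CPM in 70 AdipoΔ/Δ cells, a ratio of 5.09 (3.43 to 7.66). With a C1q UMI it was 0 CPM in 8 control cells (0 to 78.2 CPM) and 231 (179 to 294) CPM in 48 AdipoΔ/Δ cells. In the second cluster of the AdipoΔ/Δ library Maf was therefore at a like level in cells with and without C1q. In the first Ly6C low cluster of that library it was 21.9 (10.5 to 40.3) CPM without and 111 (55.3 to 198) CPM with a C1q UMI. In Ly6C high cells without a C1q UMI Maf was 46.7 (38.3 to 56.4) CPM in 314 control and 97.5 (77.4 to 121) CPM in 110 AdipoΔ/Δ cells, a ratio of 2.09 (1.55 to 2.81), and with such a UMI it was 118 (67.6 to 192) and 134 (98.3 to 179) CPM. A cell without a C1q UMI can still hold RNA of macrophages. For Nr4a1 the ratio in cells without C1q was 0.602 (0.484 to 0.743) in the second cluster and 0.668 (0.532 to 0.832) in Ly6C high cells, for Klf4 0.517 (0.383 to 0.686) and 0.859 (0.701 to 1.05), and for Cebpb in the second cluster 0.872 (0.795 to 0.956). Pou2f2 in second-cluster cells without C1q was at 0.774 (0.636 to 0.938), no longer past 1.5-fold. The plot of Maf with and without C1q shows these groups.

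**Figure D5:**
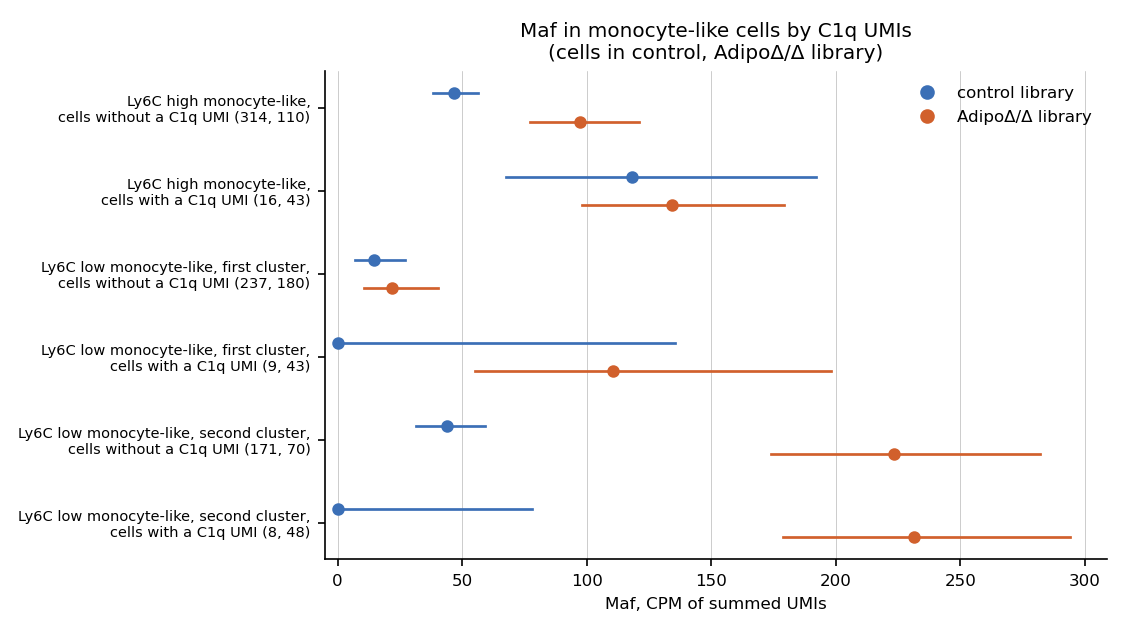
Maf level (CPM, linear axis) in monocyte cells without and with a UMI of C1qa, C1qb or C1qc, by cluster and library, with 95% Poisson intervals. Without C1q, the second Ly6C low cluster had 43.8 CPM in the control and 223 CPM in the AdipoΔ/Δ library, and Ly6C high cells had 46.7 and 97.5 CPM.

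At a resolution of 2, most cells of the second cluster fell into a pair of parts. The part led by Gngt2, with 120 control and 69 AdipoΔ/Δ cells, was named Ly6C low, and the part led by Aif1, with 57 and 46 cells, met no list. Maf was higher in the AdipoΔ/Δ library in both, at 46.8 (31.4 to 67.3) and 205 (155 to 265) CPM in the Gngt2 part and 34.5 (18.3 to 58.9) and 249.7 (197 to 312) CPM in the Aif1 part. Nr4a1 was 733 and 515 CPM in the Gngt2 part and 231 and 77.8 CPM in the Aif1 part, lower in the AdipoΔ/Δ library in both. Cebpb was 2693 and 2252 CPM and 1179.7 and 713 CPM. C1qa stood at 1.61 and 35.3 CPM in the Gngt2 part and 7.95 and 778 CPM in the Aif1 part. In the AdipoΔ/Δ Aif1 part 17 of 46 cells held a C1qa UMI and 1 cell held 139 of 240, without which C1qa was 359.9 CPM and Maf 264 CPM. The antigen presentation gene H2-Ab1 was at 244 and 1129 CPM and 3253 and 6061 CPM. The part of these genes' cells in the Maf result was not tested. In single cells of the second cluster, Nr4a1 and Maf were found together in 23 of 179 control cells, Nr4a1 without Maf in 113, Maf without Nr4a1 in 4 and neither in 39. In the AdipoΔ/Δ library both were found in 18 of 118 cells, Nr4a1 without Maf in 37, Maf without Nr4a1 in 26 and neither in 37.

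Genes like each member were found by the Pearson correlation of log2(CPM + 10) over 16 profiles, from 8 classes in both libraries, among 8036 genes with at least 200 UMIs. The profiles share 2 libraries and differ in depth and number of cells, so the correlations describe these data. Spi1 was most like Themis2 (0.982) and Pirb (0.981). Cebpb was most like Tlr13 (0.974), Fgd4 (0.974) and Sat1 (0.966). Nr4a1 was most like Mapkapk2 (0.929), Fam49b (0.918) and Wsb1 (0.914), and Pou2f2 most like Filip1l (0.972), Ggta1 (0.929) and Zfp706 (0.925). Among the genes most like Klf4 were Hpgd (0.977) and Slc8a1 (0.971), and among those most like Cebpa were Mcub (0.979) and P2ry6 (0.970). Maf was most like Ptpra (0.929), Tpp1 (0.891) and Wwp1 (0.888), Irf4 most like H2-DMa (0.933), Fgd2 (0.917) and Lpcat1 (0.916), of which H2-DMa serves antigen presentation, and Irf8 most like Polr2i (0.898), Lat2 (0.885) and Cdk2ap1 (0.880). Among the members themselves, Cebpa and Klf4 were the most alike pair, at 0.868, followed by Cebpb and Nr4a1, at 0.843, and Irf8 and Cebpb were the least alike, at -0.316.

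On the mm10 (GRCm38) build, with gene positions from GENCODE M21 matched by identifier, the members lay on 6 chromosomes. Chromosome 8 held Maf (ENSMUSG00000055435) at chr8:115682942-115707794 on the minus strand and Irf8 (ENSMUSG00000041515) at chr8:120736358-120756694 on the plus strand. Chromosome 2 held Spi1 (ENSMUSG00000002111) at chr2:91082390-91115756 and Cebpb (ENSMUSG00000056501) at chr2:167688915-167690418, both on the plus strand, and chromosome 7 held Cebpa (ENSMUSG00000034957) at chr7:35119293-35121928 on the plus and Pou2f2 (ENSMUSG00000008496) at chr7:25087344-25179726 on the minus strand. The others were Irf4 (ENSMUSG00000021356) at chr13:30749226-30766976 and Nr4a1 (ENSMUSG00000023034) at chr15:101254269-101274795 on the plus strand and Klf4 (ENSMUSG00000003032) at chr4:55527143-55532466 on the minus strand. The RefSeq starts used for the promoters of Nr4a1 and Pou2f2 and the second promoter of Irf8 lay more than 1000 bases inside these GENCODE genes. No counted gene on the same strand overlapped a member, and Maf, Cebpa, Cebpb and Pou2f2 each overlapped a counted gene on the opposite strand.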

How the data were processed

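Single-cell RNA of sorted BAT leukocytes was measured in 1 library per group. The authors aligned reads to mm10 and counted UMIs with Cell Ranger (4.0.0 per the file headers), and deposited raw counts for each gene and barcode. From these counts, CPM of summed UMIs, shares of cells with a UMI and ratios were computed here. Depth per library is given with the results. Cells were clustered with SCTransform 0.4.2, regressing out the mitochondrial share, and anchor integration in Seurat 5.3.0 under R 4.3.3, with 1942 of 2000 features left after removal of listed genes, 20 principal components and a resolution of 1. A cluster was named for a class where at least 3 of its markers were detected in at least 10% of the cells. The list score also had to be at least 0.5, with a marker among the 10 leading genes. A subset needed the same, but with more than 1 marker among the 10 leading genes. Where only a subset list was met, the cluster was called macrophage-like if at least 3 macrophage markers were detected. The mitochondrial limit of the study, 2%, left 1306 and 889 barcodes here and served as an alternative to 10%. The study reports far more cells after its filter. Intervals came from SciPy 1.17.1 under Python 3.11.15 with NumPy 2.4.6 and pandas 2.3.3, plots from Matplotlib 3.10.9, and doublet scores from Scrublet in Scanpy 1.11.5. A gene entered a comparison with at least 50 UMIs over both sides. With 1 library per group no test between groups was made. The steps were tested on simulated data.

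Genes named are the 9 members, up to 3 of the genes most like each, and up to 5 per direction past 1.5-fold from lists of 60 other factors, 22 immediate early genes and 14 targets, besides markers. Members and lists were chosen with earlier results of these data known. Fos and Egr1 by cluster, H2-Ab1 and C1qa in parts of the second cluster, contrasts between clusters of a class, members beside marker lists and pairs in cells were chosen after their values were seen. Alternatives varied 1 choice at a time: filters, resolution, components, integration, features, scaling, denominator, least UMIs, doublets, shared barcodes, weighting, clusters left out, the cell with the most UMIs of a gene left out (added after seeing the data) and thinning. Filters, resolution, components, integration and features redrew the classes.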

Additional observations from a re-analysis of the deposited data

Results flagged for a closer look

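For 4 members, the ratio of the AdipoΔ/Δ to the control level had an interval wholly above 1 in some clusters and wholly below 1 in others, among the 9 monocyte, macrophage, dendritic and neutrophil clusters, where the gene had at least 50 UMIs over both libraries. The difference between the clusters was not tested for any of them. Maf was higher in the AdipoΔ/Δ library in Ly6C high cells (2.14, but 1.04 with a mitochondrial limit of 2%), the second Ly6C low cluster (5.44), the macrophage cluster with no subset (2.17) and matrix macrophages (2.33), and lower in resident macrophages (0.872). Spi1 was higher in neutrophils (1.23) and lower in the first (0.876) and second (0.854) Ly6C low clusters and in the macrophage cluster with no subset (0.670), but with TMM scaling its ratio in neutrophils was 0.981. Cebpb was higher in neutrophils (1.43) and lower in the first (0.910) and second (0.684) Ly6C low clusters, the macrophage cluster with no subset (0.488) and lipid-associated macrophages (0.259). Nr4a1 was higher in neutrophils (1.85) and matrix macrophages (3.32) and lower in Ly6C high cells (0.719), the second Ly6C low cluster (0.525) and the macrophage cluster with no subset (0.208). Some of these intervals held 1 once the cell with the most UMIs of the gene was left out of 1 library, with ratios of 0.947 for Maf in resident macrophages, 0.893 and 0.748 for Spi1 in the first Ly6C low cluster and the macrophage cluster with no subset, and 2.18 for Nr4a1 in matrix macrophages.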

How the results depend on the processing

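No paired analysis was possible because each group had 1 library. Over all alternatives, 128 of 151 counts of members past 1.5-fold were within 1.5 times the count reported and 23 were not. Of 1274 ratios of members, 1090 stayed inside the interval of the reported ratio, 179 left it without a called ratio changing side, and 5 called ratios changed side. Between the libraries, the count of members past 1.5-fold in macrophages was 6 in place of 3 with a mitochondrial limit of 2%, and 1 with at least 500 detected genes, 1 without integration and 1 without the cluster that met no subset list. In Ly6C high cells it was 0 in place of 2 with the 2% limit, 4 at a resolution of 0.5 and 1 with the mean of per-cell CPM. In Ly6C low cells it was 3 in place of 1 with at least 500 detected genes, 0 at a resolution of 0.5, 2 with at least 20 UMIs and 0 without the second cluster, which was added after seeing the data. In dendritic cells it was 2 in place of 1 with a limit of 5%, 0 with 2%, 0 with 30 principal components, 0 without integration, 4 with the mean of per-cell CPM, 0 with TMM scaling and 0 without the AdipoΔ/Δ cell with the most UMIs of each member, also added after seeing the data. In neutrophils it was 2 in place of 1 with 5%, 2 with 2%, 0 with TMM scaling and 2 with at least 20 UMIs. Between macrophages and Ly6C high cells of the control library it was 2 in place of 6 with the 2% limit. The share of all genes past 1.5-fold under each alternative is not given here, so these counts cannot be set beside it.

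Between the libraries, Irf4 in macrophages changed side with the 2% limit (1.24), Nr4a1 in macrophages with at least 500 detected genes (1.25) and without the cluster that met no subset list (1.21), and Nr4a1 in dendritic cells with the 2% limit (0.930). Irf4 in Ly6C low over Ly6C high cells of the AdipoΔ/Δ library changed side with at least 500 detected genes (1.01). More genes enter with at least 20 UMIs, and for the other alternatives the cause was not tested.

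Depth limits what can be said of the 12 control lipid-associated macrophages, with 28300 UMIs. The libraries cannot be told apart from the conditions, and free RNA in droplets was not removed. Marker lists read in clusters of other cell types were its only measure.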

Other observations

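Dividing cells, 18 in the control and 36 in the AdipoΔ/Δ library, were placed in no comparison because their cluster was named for the cell cycle. They held 145 and 205 CPM of Maf, 52.1 and 191 CPM of Spi1, 81.0 and 313 CPM of Irf8, 40.5 and 148 CPM of Cebpb and 11.6 and 137 CPM of Klf4. Maf was at 1.42 (0.913 to 2.29) times the control level, or 2.84 (1.56 to 5.67) without the control cell with the most Maf. Spi1 was at 3.66 (1.85 to 8.23) and Cebpb at 3.65 (1.69 to 9.38) times the control level, or 15.8 (4.27 to 132) without 1 control cell and 2.38 (1.07 to 6.22) without 1 AdipoΔ/Δ cell. Irf8 was at 3.86 (2.24 to 7.21), but at 1.18 (0.643 to 2.32) without 1 AdipoΔ/Δ cell, each cell being the one with the most UMIs of the gene, and Klf4 rested on 2 and 74 UMIs.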
